A study of Mus musculus with 12 samples.

Results

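The genes of the proteasome were described in 12 mouse livers, as all symbols of the Psma to Psmg families that the array annotation ties to a probe set of a single gene. The rule found 50 symbols among 19938 genes with such a probe set. Of these, 48 encode subunits, regulators or assembly chaperones of the proteasome. Psmc3ip, a factor of meiotic recombination, and Psme3ip1, which binds the PA28-gamma activator, match the name pattern but are no proteasome parts and were kept apart. Psma8, the testis-type alpha subunit, and Psmb11, the thymus-type beta subunit, were among the 25% of genes with the lowest signal and were not tested, with log2 signals of 4.31 to 4.76 and 4.39 to 4.76 over the arrays. The other 46 were tested: 7 alpha and 7 beta subunits of the core, 3 immunoproteasome subunits, 6 ATPases and 11 non-ATPase subunits of the regulatory particle, 5 activators or inhibitors and 7 assembly chaperones. Psme2b shares its only probe set with Psme2, and that probe set was left out.

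The livers were from mice aged 7 weeks, derived from a mixed C57BL/6 and NMRI stock backcrossed to C57BL/6. The 3 groups of 4 livers were wild type mice, mice that carry a constitutively active FoxO3 under the LAP promoter, a promoter active in liver, and mice with the same transgene that were given metformin, a drug against type 2 diabetes that lowers glucose output by the liver. The sources used here state neither dose nor duration of metformin. No wild type group received metformin, so the drug was compared only between transgenic livers. Each array measured 1 liver, labelled as a biological replicate, and all values are log2 signals, where a difference of 1 is a doubling.

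The 26S proteasome degrades proteins that carry ubiquitin chains. Its barrel, the 20S core, is built of outer alpha rings and inner beta rings, of which the beta subunits Psmb5, Psmb6 and Psmb7 cut peptides. The 19S regulatory particle caps the barrel, binds ubiquitin chains, unfolds the substrate with a ring of ATPases and feeds it into the core. Under interferon, and constitutively in many immune cells, Psmb8, Psmb9 and Psmb10 replace the standard catalytic subunits and give the immunoproteasome, whose peptides serve antigen presentation. FoxO factors have been linked to protein breakdown by ubiquitin ligases and the proteasome in muscle, and Nrf1 and Nrf2 bind antioxidant response elements in proteasome promoters.

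The promoters of 5 members are shown because the results turn on these genes. Psmd9 and Psmd8 had the clearest differences between groups, and Psmb6, Psmb8 and Psmb9 are a standard catalytic subunit, the called immunosubunit and the immunosubunit that replaces Psmb6. Each sequence holds the 250 bases before the start of the gene in RefSeq on GRCm38.p6, 5′ to 3′ on the gene's strand. Capitals mark, in Psmd9, the antioxidant response element core TGACNNNGC and the interferon-stimulated response element core (GAAA, 2 bases of any kind, GAAA), in Psmb6 the antioxidant core, in Psmb8 the gamma-interferon activation site TTCNNNGAA, and in Psmb9 the CCAAT box, which lies on the opposite strand and so reads ATTGG. The Psmd8 window holds no match to either core marked in Psmd9 and is printed without capitals.
Psmd9, chr5:123227940-123228189, plus strand: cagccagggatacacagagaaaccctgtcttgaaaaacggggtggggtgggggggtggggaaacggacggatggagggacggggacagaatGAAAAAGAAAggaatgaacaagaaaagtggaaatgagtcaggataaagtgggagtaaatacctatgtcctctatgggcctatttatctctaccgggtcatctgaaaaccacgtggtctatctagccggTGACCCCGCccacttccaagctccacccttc
Psmd8, chr7:29180674-29180923, minus strand: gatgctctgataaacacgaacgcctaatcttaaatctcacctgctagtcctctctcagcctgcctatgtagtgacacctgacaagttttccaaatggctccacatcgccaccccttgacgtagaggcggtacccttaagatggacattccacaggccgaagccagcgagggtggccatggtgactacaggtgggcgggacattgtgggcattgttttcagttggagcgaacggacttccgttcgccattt
Psmb6, chr11:70525107-70525356, plus strand: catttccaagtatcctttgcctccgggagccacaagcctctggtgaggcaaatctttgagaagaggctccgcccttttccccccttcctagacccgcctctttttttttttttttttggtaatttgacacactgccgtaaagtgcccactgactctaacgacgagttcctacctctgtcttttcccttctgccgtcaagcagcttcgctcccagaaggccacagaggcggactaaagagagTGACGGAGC
Psmb8, chr17:34197945-34198194, plus strand: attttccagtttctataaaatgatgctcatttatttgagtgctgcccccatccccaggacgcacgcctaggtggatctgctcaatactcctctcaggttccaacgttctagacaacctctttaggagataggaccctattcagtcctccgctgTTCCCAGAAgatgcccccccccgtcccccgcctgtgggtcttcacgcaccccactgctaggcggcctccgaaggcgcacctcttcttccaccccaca
Psmb9, chr17:34187331-34187580, minus strand: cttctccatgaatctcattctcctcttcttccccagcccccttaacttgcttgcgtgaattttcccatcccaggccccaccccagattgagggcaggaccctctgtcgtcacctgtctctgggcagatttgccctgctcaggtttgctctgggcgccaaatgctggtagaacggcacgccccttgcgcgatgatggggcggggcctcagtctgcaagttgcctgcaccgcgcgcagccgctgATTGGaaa
In Psmd9 the antioxidant core, TGACCCCGC, lies 31 to 23 bases before the start and the interferon core, GAAAAAGAAA, 159 to 150 bases before it, so they do not overlap. In Psmb6 the antioxidant core TGACGGAGC ends at the base before the start.

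A window was found for 40 of the 48 members, and 6 motifs were searched on both strands. The antioxidant core was in 12.5% of these members (Psmb5, Psmb6, Psmc6, Psmd12 and Psmd9) and in 11.5% of all 27025 genes with a window. The ETS core CCGGAAG was in 12 of the 40 members, or 30.0%, against 7.83% of all genes. The CCAAT box was in 35.0% of members against 37.5% of genes. The interferon-stimulated core was in Psmb3, Psmd4 and Psmd9, that is 7.5% against 3.46%. The gamma-interferon site was in Psmb8 and Psmg1, 5.0% against 8.13%. GTAAACA, the only form of the forkhead site that was searched, was in none of the 40 members and in 3.54% of all genes. Windows without it may hold other forms of the site. These are letter matches in short windows and were not tested.

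Several features of the arrays touch all comparisons and are given first. The mean log2 signal of the hepatocyte markers, such as albumin, was 13.0 to 13.3 on the 12 arrays, which fits the labelled tissue. The probe set of Foxo3 was not called in the transgenic livers (log2 difference 0.05, limma adjusted p = 0.844), and whether it detects the transgene is not known. All 4 transgenic livers had Y-linked signal, all 4 metformin-treated livers had Xist signal, and the wild type livers were divided, replicates 1 and 4 with Xist and replicates 2 and 3 with Y-linked signal. Metformin-treated replicate 3 had Xist at 10.57, against 11.68 to 11.95 in the other livers of its group. Its mean log2 signal of Y-linked genes was 4.24, against 3.92 to 4.05. The labels give no sex, so transgenic and metformin-treated livers differ in this signal as well as in treatment, and only the wild type livers hold both. Among wild type livers, the difference of Xist from Y-linked arrays ran from -0.24 to 0.21 over the 46 members, with a median of -0.04. Metformin-treated replicate 3 and transgenic replicate 2 stood apart from their groups, and counts are also given without them.

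**Figure D1:**
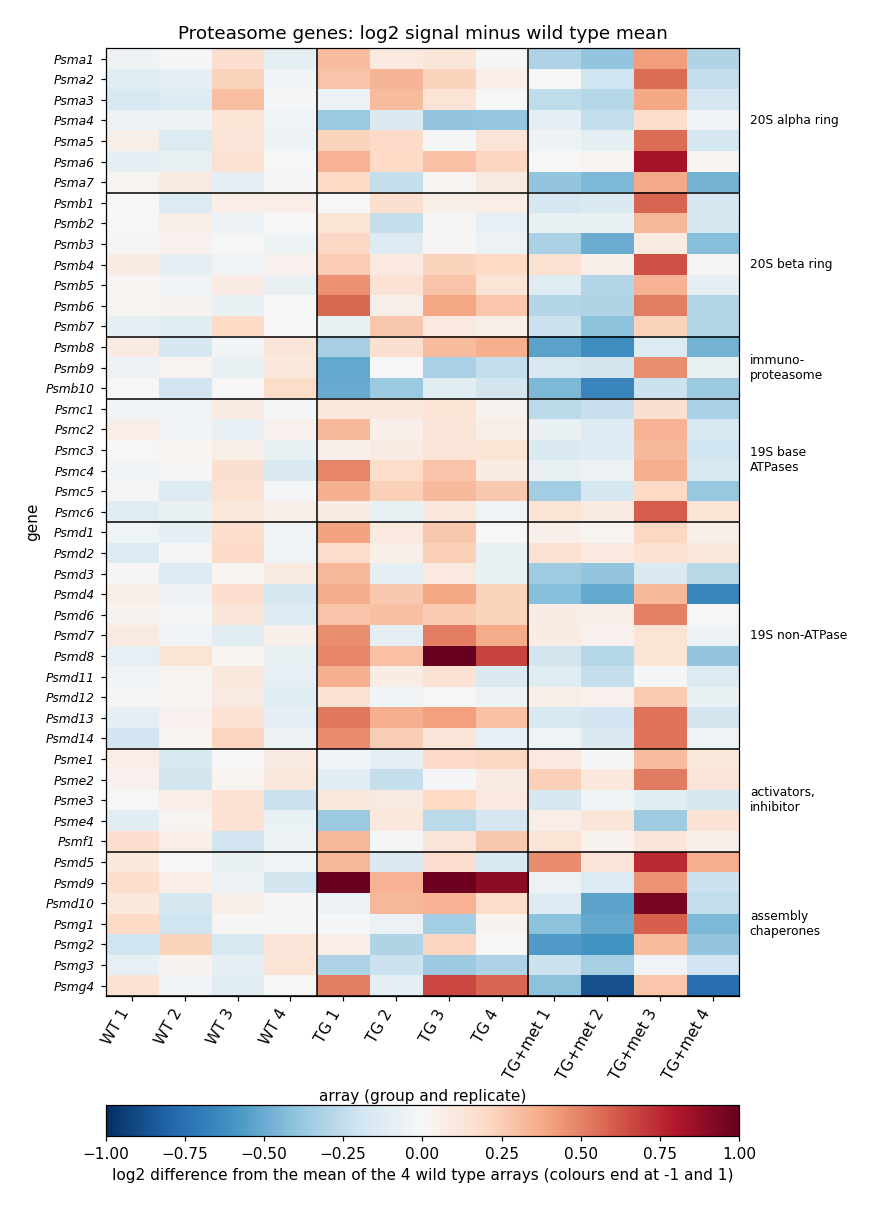
Log2 signal of the 46 proteasome genes (rows, by class) on the 12 arrays (columns), as the difference from the mean of the 4 wild type arrays, coloured from blue (lower) to red (higher). Many core and ATPase rows are red in the transgenic arrays and blue in metformin-treated replicates 1, 2 and 4, while metformin-treated replicate 3 has the highest value of its group in 43 of 46 rows.

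Proteasome genes as a whole were no more often different among the 3 groups than other genes. By limma's F test over all tested genes, 10 of the 46 members differed among the groups at an adjusted p under 0.05, against 24.2% of the 14953 tested genes. These were Psma4, Psmb8, Psmb10, Psmc5, Psmd3, Psmd4, Psmd8, Psmd9, Psmg3 and Psmg4. They belong to every class but the standard beta ring and the activators.

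Active FoxO3 went with higher Psmd9 and Psmd8 and with lower Psma4 and Psmg3. The comparison of transgenic with wild type livers called 4 of the 46 members, or 8.70%, a share below the 14.1% called among all tested genes. Those higher were 2 members, where 7.97% of all genes were higher, and those lower were 2, where 6.15% were lower. With arrays centred on their medians the called members were 2 higher and none lower, and over all genes the calls went from 1192 higher and 919 lower to 1614 higher and 552 lower. Signs were less evenly divided, since 37 members had a positive and 9 a negative log2 difference, with a median of 0.12 against -0.01 over all tested genes. All 11 non-ATPase subunits and all 6 ATPases of the regulatory particle were above 0 (9 and 5 of them after quantile normalization), with medians of 0.19 and 0.12, and the alpha and beta rings had medians of 0.13 and 0.09. The immunoproteasome subunits had a median of -0.27. In 12 members the groups did not overlap, 10 of them higher in transgenic livers, which is 26.1% against 21.9% of all tested genes.

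Psmd9 is a chaperone of the regulatory particle base, which holds the ATPases during assembly and leaves before the particle is complete. Its log2 signals were 8.10, 8.0003, 7.88 and 7.75 in wild type livers and 9.05, 8.28, 8.91 and 8.84 in transgenic livers. The lowest transgenic liver, replicate 2, lay above every wild type liver. The difference was 0.84 ± 0.18 (SE, n = 4 and 4), a 1.79-fold rise, with an adjusted p of 0.0131 by limma. It stayed past the threshold in each of the 12 fits that left out 1 array.

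Psmd8, a subunit of the regulatory particle lid, had signals of 10.40, 10.61, 10.50 and 10.40 in wild type and 10.96, 10.77, 11.48 and 11.16 in transgenic livers. Here too the groups did not overlap. The difference was 0.61 ± 0.15 (SE, limma adjusted p = 0.0213), or 1.53-fold, and it lost its call in 4 of 12 fits that left out 1 array, with adjusted p up to 0.0606.

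Both decreases were small. Psma4, an alpha ring subunit, had 10.03, 10.05, 10.23 and 10.06 in wild type against 9.72, 9.95, 9.70 and 9.70 in transgenic livers, without overlap. It fell by 0.33 on the log2 scale (SE 0.097, limma adjusted p = 0.0444) and was called in only 3 of the 12 fits without 1 array. Psma4 was the only alpha subunit with a mean below wild type in transgenic livers, where quantile normalization gave 2. Psmg3, which forms with Psmg4 a chaperone pair that helps to assemble the alpha ring, had 5.95, 6.08, 5.95 and 6.18 in wild type against 5.74, 5.83, 5.68 and 5.73 in transgenic livers. It fell by 0.30 (SE 0.081, limma adjusted p = 0.0324), called in 6 of the 12 fits. Its partner Psmg4 had 7.66, 7.49, 7.39 and 7.51 in wild type and 8.02, 7.42, 8.18 and 8.09 in transgenic livers, a difference of 0.42 that was not called (adjusted p = 0.229).

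With a covariate for sex signal, the difference between Xist and the Y-linked genes on each array, no member was called in this comparison, where 4.35% of all genes were called. The covariate with transgenic replicate 2 left out called Psma4, Psmd7, Psmd8 and Psmd9, against 20.1% of all genes, and with metformin-treated replicate 3 left out instead it called Psma4, Psmd13 and Psmd9, against 10.2%. With the covariate and all arrays, the estimates of Psmd9 and Psmd8 stayed at 0.82 (limma adjusted p = 0.06) and 0.53 (0.101). Among the Y-linked arrays alone, 4 transgenic and 2 wild type, they were 0.83 and 0.53, again not called. In the wild type livers, Xist arrays differed from Y-linked arrays by -0.01 for Psmd9 and by -0.16 for Psmd8.

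Transgenic replicate 2 was the lowest transgenic liver for Psmd9, Psmd8, Psmg4 and Psmb6. Without it, limma called 5 members between transgenic and wild type livers, where 26.8% of all genes were called. The added member was Psmd7, a lid subunit, with 9.73 to 9.92 in wild type livers and 10.30, 9.74, 10.34 and 10.20 in transgenic livers. Its difference was 0.45 without replicate 2 (limma adjusted p = 0.00181). Psmd9 then stood at 1.00 and Psmd8 at 0.72. Between metformin-treated and untreated transgenic livers 11 members were called without it (32.3% of all genes), and between metformin-treated and wild type livers none (4.12%).

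**Figure D2:**
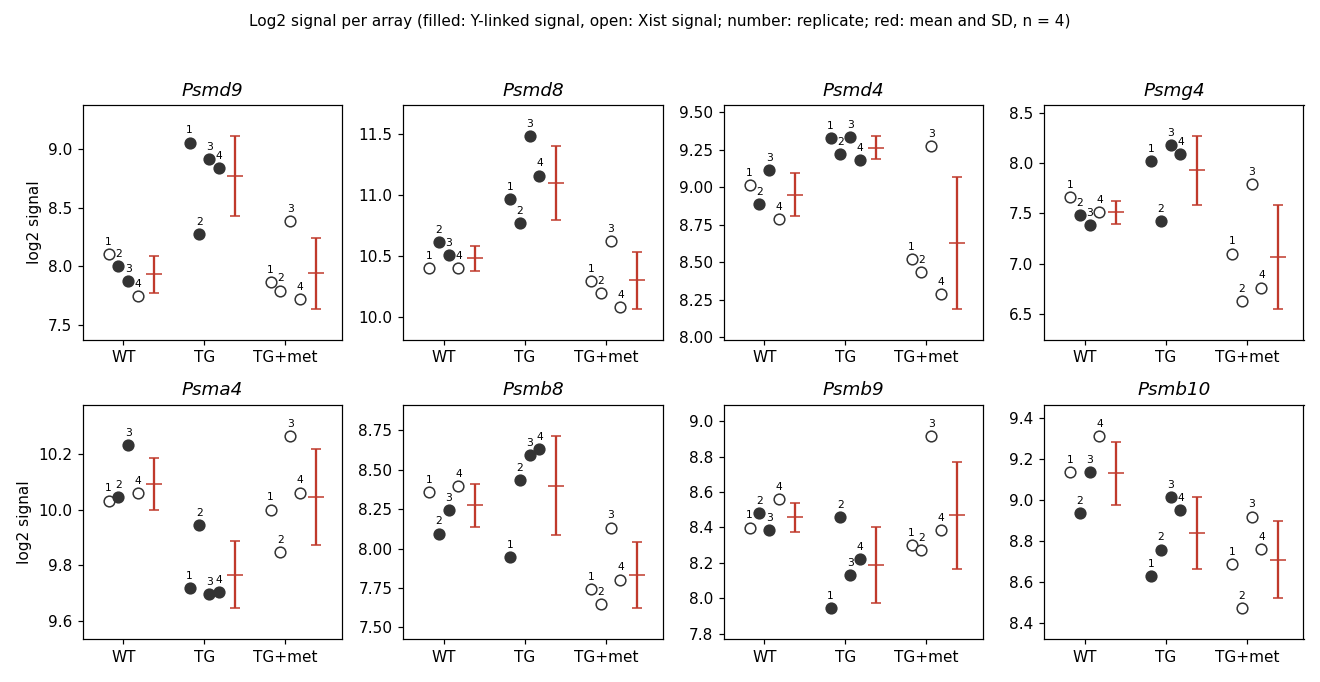
Log2 signal of 8 proteasome genes on each of the 12 arrays, filled for Y-linked and open for Xist signal and numbered by replicate, with the mean and SD of each group of 4 in red. Psmd9 and Psmd8 were higher in all transgenic than in all wild type livers, and in the metformin-treated group replicate 3 is the highest point in each panel.

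Metformin-treated transgenic livers had lower signals than untreated transgenic livers for 8 members and a higher signal for 1. The 9 called members are 19.6% of the 46, below the 24.7% called among all tested genes (14.1% lower and 10.6% higher). Psmd8, Psmd9, Psmd4, Psmd3, Psmc5, Psmg4, Psmb8 and Psme3 fell, Psme2 rose, and no alpha or standard beta subunit was called with all 12 arrays. The median over the 46 members was -0.16 against -0.01 over all genes, with 34 members below 0 and 12 above. The called members were 8 lower and none higher after centring, which lost Psme2, and 7 lower and 3 higher after quantile normalization, which added Psma4 and Psmd5 on the higher side and lost Psme3. Over all genes the calls were 1583 higher and 2112 lower, and 1108 and 2591 after centring. The groups did not overlap in 5 members, 10.9% against 21.6% of all tested genes, and metformin-treated replicate 3 lay within or above the transgenic range in 42 of the 46.

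The 2 genes that were higher with the transgene were lower again with metformin. These comparisons share the untreated transgenic livers, so each group's own values are given. Psmd9 had 7.87, 7.79, 8.38 and 7.72 in the metformin-treated livers, against 8.28 to 9.05 in untreated transgenic and 7.75 to 8.10 in wild type livers. It fell by 0.83 (SE 0.18, limma adjusted p = 0.0065), to 0.01 ± 0.18 above wild type, with a 95% interval of -0.38 to 0.40. Psmd8 had 10.29, 10.19, 10.62 and 10.08, all below every untreated transgenic liver. It fell by 0.80 (SE 0.15, limma adjusted p = 0.0034). Psmd8, Psmd9 and Psmc5 were called in each of the 12 fits that left out 1 array.

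Psmd4, the ubiquitin receptor also known as Rpn10, had signals of 8.52, 8.44, 9.27 and 8.29 with metformin and 9.33, 9.22, 9.34 and 9.18 without. Replicate 3 lay within the untreated range and the other metformin-treated livers far below it. The decrease was 0.63 (SE 0.17, limma adjusted p = 0.0203). Psmd3, a subunit of the lid, had 8.76, 8.72, 8.97 and 8.84 against 9.45, 9.02, 9.22 and 9.05 and fell by 0.36 (SE 0.10, limma adjusted p = 0.0231), with no overlap. Psmc5, an ATPase of the base, had 7.80, 7.98, 8.35 and 7.77 against 8.51, 8.39, 8.48 and 8.42 and fell by 0.47 (SE 0.12, limma adjusted p = 0.013), also with no overlap. Wild type livers had 8.14, 8.02, 8.31 and 8.14 for Psmc5, all below the transgenic livers (difference 0.30, limma adjusted p = 0.108), and 9.13, 8.99, 9.14 and 9.21 for Psmd3. Psmg4 had 7.10, 6.63, 7.79 and 6.76 and fell by 0.86 (SE 0.23, limma adjusted p = 0.018), the largest decrease among the 46 members, with replicate 3 inside the untreated range. The calls of Psmd3 and Psmd4 were lost in 4, and those of Psmg4 in 3, of the 12 fits without 1 array.

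Metformin-treated transgenic livers and wild type livers differed in no called member. None of the 46 was called by limma, against 2.43% of all tested genes (0.99% higher, 1.44% lower). At an unadjusted p under 0.05 there were 7 of the 46, where 17% of all genes reached it. The groups did not overlap in 3 members, Psmb10, Psmd3 and Psmd5, which is 6.52% against 14.4% of all genes. The median was -0.0031, with 22 members above and 24 below 0, and its sign changed when arrays were centred on their medians. With array quality weights in limma, 17 members were called, where 20.4% of all genes were called. The weights were 0.175 for metformin-treated replicate 3 and 0.97, 1.30 and 4.57 for replicates 1, 2 and 4 of that group. This fit thus comes close to leaving replicate 3 out and is no separate result.

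With the covariate for sex signal no member was called between metformin-treated and untreated transgenic livers either, and the count over all genes fell from 3695 to 82, or 0.548%. With the covariate, 2 members (Psmd7 and Psmd9) were called without transgenic replicate 2, against 12.3% of all genes. Without transgenic replicate 2 and metformin-treated replicate 3, it called 13 members, 7 of them among the 9, against 19.4% of all genes. With all arrays the estimates were -0.79 for Psmd9 (limma adjusted p = 0.187) and -0.63 for Psmd8 (0.192). For Psme3 the covariate took the difference from -0.25 to -0.05. Among wild type livers the Xist arrays differed from the Y-linked arrays by -0.22 for Psme3. Sex signal and metformin cannot be told apart between these groups.

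Metformin-treated replicate 3 had higher proteasome signals than the other metformin-treated livers in nearly all classes. It was the highest of the 4 metformin-treated arrays in 43 of the 46 members, or 93.5%, against 38.1% of all tested genes. The median over the members lay 0.48 above the mean of the other 3 livers, where the median over all tested genes was 0.01 above. It was highest for all 7 alpha subunits (median 0.70 above the others), all 7 beta subunits (0.54), all 3 immunoproteasome subunits (0.40), all 6 ATPases (0.48), all 11 non-ATPase subunits (0.25) and all 7 chaperones (0.83). The exceptions were the activators Psme3 and Psme4 and the inhibitor Psmf1. In 25 members (54.3%) it had the highest signal of all 12 livers, against 18.8% of all genes. Psma6, an alpha subunit, had 11.24 in this liver and 10.32 to 10.76 in the 11 others.

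**Figure D3:**
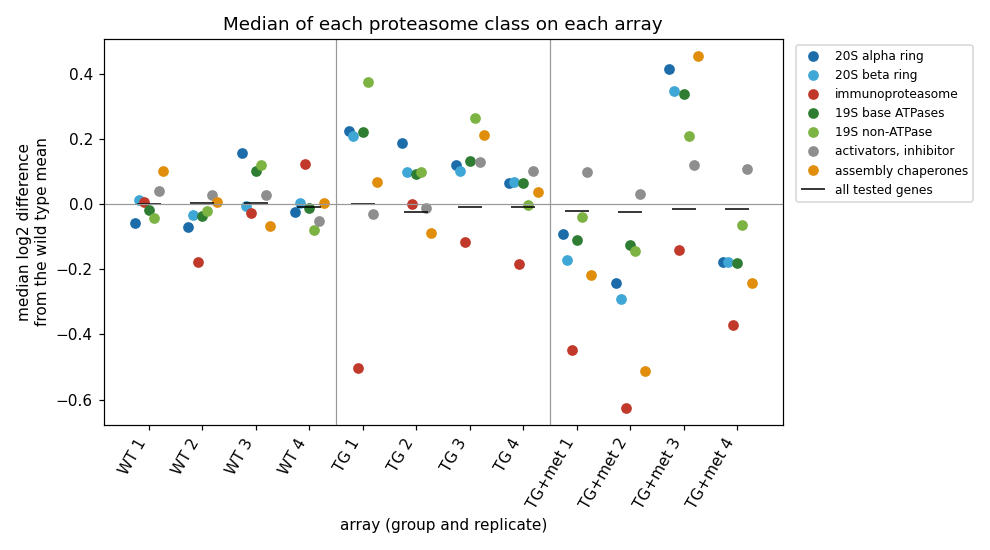
Median log2 difference from the wild type mean for each proteasome class on each of the 12 arrays, with the median over all tested genes as a black bar. The bars stay near 0, while the core, ATPase and chaperone medians lie below them in metformin-treated replicates 1, 2 and 4 and above them in replicate 3.

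The other 3 metformin-treated livers had low signals for many members. All 3 lay below every untreated transgenic liver in 28 of 46 members (60.9%, against 19% of all genes) and below every wild type liver in 23 (50%, against 16.1%). With replicate 3 left out, limma called 25 members between metformin-treated and untreated transgenic livers, all of them lower. The background also rose, to 28.6%. Called were 4 of 7 alpha subunits, 5 of 7 beta subunits, 5 of 6 ATPases, 5 of 11 non-ATPase subunits, 5 of 7 chaperones, 1 of 3 immunoproteasome subunits and none of the 5 activators or inhibitors. Of the 9 called with all arrays, 7 were among these, and Psme2 and Psme3 were not. Every array was left out in turn, and each other fit without 1 array called 3 to 11 members here. Replicate 3 was the highest of its group in 43 of the 46 members, so leaving it out lowers their group means by construction. The counts of 28, 23 and 25 members are therefore no separate support for lower signals with metformin.

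Decreases with metformin also grew when replicate 3 was left out, as they must for members in which it was the highest of its group. The sizes, adjusted p and calls of lower signals given here are therefore no separate support for lower signals with metformin. Without replicate 3, Psmg4 was lower by 1.10 (estimate -1.10 ± 0.17, limma adjusted p = 0.00129) and Psmd4 by 0.85 (-0.85 ± 0.093, adjusted p = 2.29e-04). Psmb6, the caspase-like catalytic subunit, went from -0.42 (adjusted p = 0.0935) to -0.62 and was called. Against wild type, 7 members were called, all lower: Psma7, Psmb3, Psmb10, Psmc1, Psmd4, Psmg1 and Psmg4, where 5.18% of all genes were called. The comparison of transgenic with wild type livers shares the estimate of spread and rose to 10 members, where 21.8% of all genes were called. With the covariate added and replicate 3 left out, a choice made after seeing the values, 2 members, Psmd4 and Psmg4, were called lower with metformin, where 3.66% of all genes were called.

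Cell type markers also differed in metformin-treated replicate 3. The mean log2 signal of 12 Kupffer cell and macrophage markers was 8.29, against 9.13 to 9.28 in the other metformin-treated livers, and none of the 12 was highest there. The 7 endothelial markers had 8.49 against 9.57 to 9.71, and the 6 dendritic cell and MHC class II markers 7.38 against 8.04 to 8.14. The 11 measured lymphocyte markers, 8 of them tested, had 5.81 against 5.99 to 6.18. Hepatocyte markers had 13.20 against 13.22 to 13.30. Their part in the high proteasome signals was not tested. In whole liver, fewer cells of a type and less RNA per cell cannot be told apart.

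**Figure D4:**
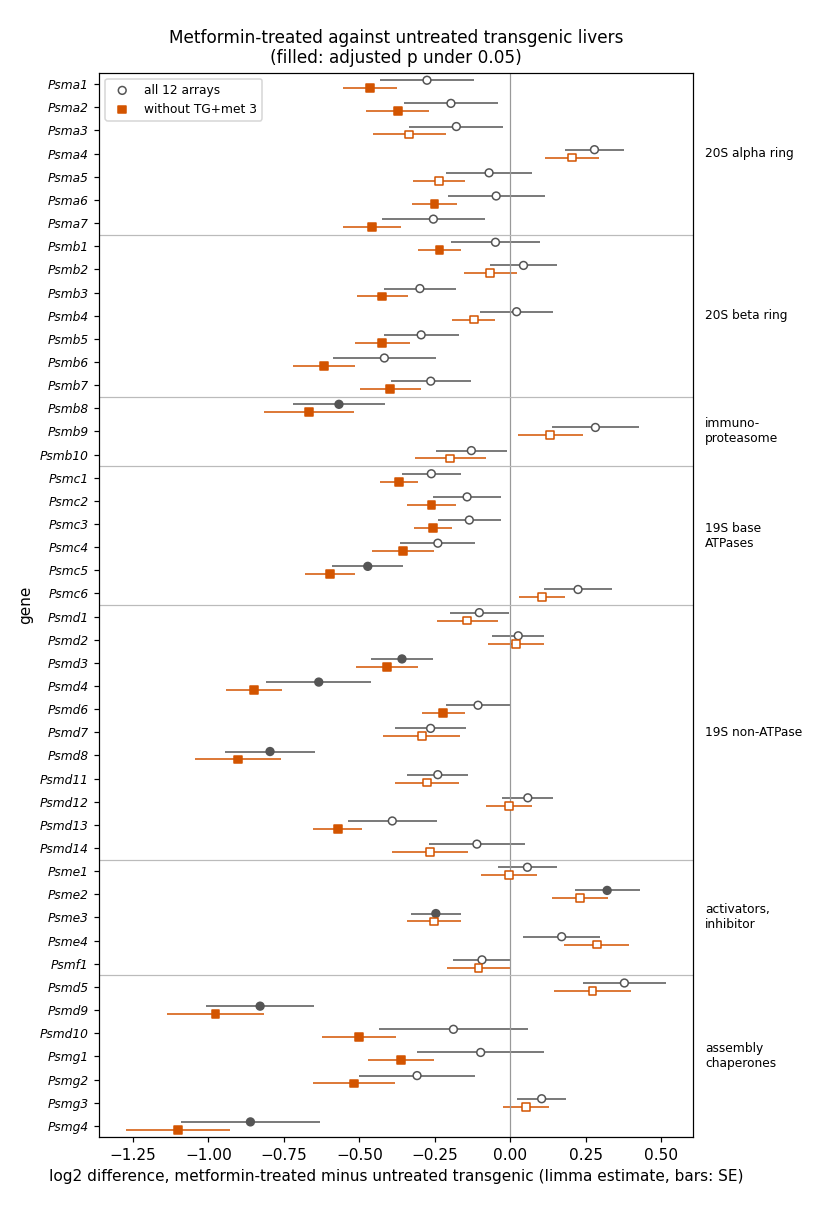
Log2 difference of metformin-treated from untreated transgenic livers for the 46 proteasome genes, by class, with all 12 arrays (grey circles) and without metformin-treated replicate 3 (orange squares); bars are the limma SE and filled symbols have an adjusted p under 0.05. With all arrays 9 symbols are filled, and without that liver 25, the latter all to the left of 0. That liver was the highest of its group in 43 of the 46 genes, so leaving it out lowers their group means by construction.

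Of the 3 immunoproteasome subunits, Psmb8 alone was called in a comparison of 2 groups with all arrays, lower with metformin, while the F test among the 3 groups called Psmb8 and Psmb10. Psmb8, the chymotrypsin-like immunosubunit, had 8.36, 8.09, 8.25 and 8.40 in wild type, 7.94, 8.43, 8.59 and 8.63 in transgenic and 7.74, 7.65, 8.13 and 7.80 in metformin-treated livers. It fell by 0.57 with metformin (SE 0.15, limma adjusted p = 0.0182), although the lowest transgenic liver, replicate 1, lay within the metformin-treated range. The call was lost in 3 of the 12 fits without 1 array. Psmb9, the immunosubunit that replaces Psmb6, had 8.40, 8.48, 8.38 and 8.56 in wild type, 7.94, 8.46, 8.13 and 8.22 in transgenic and 8.30, 8.27, 8.92 and 8.38 in metformin-treated livers. None of its differences was called. Psmb10, which replaces Psmb7, had 9.14, 8.94, 9.14 and 9.32 in wild type, 8.63, 8.76, 9.02 and 8.95 in transgenic and 8.69, 8.47, 8.92 and 8.76 in metformin-treated livers. All metformin-treated livers lay below all wild type livers, with a difference of -0.42 ± 0.12 that was not called (limma adjusted p = 0.0836). It was called at -0.49 without metformin-treated replicate 3, the highest of its group, whose removal lowers the group mean by construction.

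The standard catalytic subunits were not called in any comparison with all arrays. Psmb5, the standard chymotrypsin-like subunit, had 11.75, 11.69, 11.81 and 11.65 in wild type, 12.18, 11.87, 12.01 and 11.86 in transgenic and 11.61, 11.43, 12.07 and 11.62 in metformin-treated livers. All 4 transgenic livers lay above wild type, by 0.25 (limma adjusted p = 0.18). Psmb6 had 10.003, 10.01, 9.90 and 9.98 in wild type, 10.54, 10.04, 10.36 and 10.25 in transgenic and 9.68, 9.67, 10.48 and 9.68 in metformin-treated livers. The transgenic livers were again above wild type without overlap, by 0.33 (limma adjusted p = 0.207). Psmb7, the trypsin-like subunit, had 10.29, 10.27, 10.58 and 10.39 in wild type, 10.32, 10.65, 10.48 and 10.44 in transgenic and 10.17, 9.97, 10.61 and 10.09 in metformin-treated livers, and all groups overlapped.

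Some classes had no called member in a comparison, and there the member with the smallest p is given. Psmb3, a structural beta subunit, had 12.32, 12.35, 12.30 and 12.26 in wild type, 12.51, 12.18, 12.32 and 12.25 in transgenic and 11.98, 11.81, 12.39 and 11.88 in metformin-treated livers. It was 0.30 lower with than without metformin (-0.30, limma adjusted p = 0.0851). Psma7, an alpha subunit, had 9.46, 9.52, 9.34 and 9.42 in wild type, 9.64, 9.20, 9.46 and 9.53 in transgenic and 9.04, 8.99, 9.81 and 8.96 in metformin-treated livers. In both genes metformin-treated replicate 3 was high and the other 3 lay below all other livers.

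Psmc6, an ATPase of the base, had 9.88, 9.91, 10.10 and 10.03 in wild type, 10.05, 9.91, 10.09 and 9.94 in transgenic and 10.11, 10.07, 10.58 and 10.11 in metformin-treated livers. Psmd5, a base chaperone, had 8.89, 8.79, 8.72 and 8.74 in wild type, 9.12, 8.64, 8.95 and 8.63 in transgenic and 9.26, 8.91, 9.53 and 9.15 in metformin-treated livers. All 4 metformin-treated livers lay above wild type for Psmd5, by 0.43 (limma adjusted p = 0.13). Psmf1, an inhibitor of the core also known as PI31, had 9.83, 9.73, 9.47 and 9.60 in wild type, 9.99, 9.64, 9.79 and 9.92 in transgenic and 9.79, 9.69, 9.78 and 9.71 in metformin-treated livers, with overlap throughout.

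The difference between an immunosubunit and the standard subunit it replaces was taken within each array, which removes shifts common to both. It compares how this difference changes between groups, not the levels of the 2 genes. For Psmb9 and Psmb6 it was -2.11 ± 0.43 (SD, n = 4) in transgenic livers and -1.41 ± 0.11 with metformin, a change of 0.70 with no overlap (exact two-sided permutation p = 0.0286, 0.0858 after adjustment over 9 tests). For Psmb10 and Psmb7 it was -1.25 ± 0.17 in wild type and -1.63 ± 0.20 in transgenic livers, lower in all 4 transgenic livers (exact p = 0.0286, adjusted 0.0858). For Psmb8 and Psmb5 it was -3.45 ± 0.16 in wild type and -3.85 ± 0.066 in metformin-treated livers (exact p = 0.0286, adjusted 0.0858). With 4 against 4 livers, 0.0286 is the smallest p this test can give, and none of the 9 passed after adjustment.

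Psme2 and Psme3, of activators that cap the core in place of the 19S particle, differed in opposite directions between metformin-treated and untreated transgenic livers. These groups also differ in sex signal, which cannot be told apart from metformin. With the covariate the differences were 0.21 for Psme2 (limma adjusted p = 0.535) and -0.05 for Psme3 (limma adjusted p = 0.843). Among wild type livers, Xist arrays differed from Y-linked arrays by 0.16 for Psme2 and -0.22 for Psme3. Psme2, the beta subunit of the interferon-inducible PA28 activator, had 10.23, 10.10, 10.32 and 10.42 in untreated transgenic and 10.58, 10.45, 10.86 and 10.47 in metformin-treated livers, and 10.38, 10.16, 10.37 and 10.45 in wild type livers. With metformin it rose by 0.32 ± 0.11 (SE, limma adjusted p = 0.0475) with no overlap between transgenic groups, but was called in only 3 of the 12 fits without 1 array. Its partner in the same ring, Psme1, had 10.08, 9.86, 10.01 and 10.10 in wild type, 9.98, 9.93, 10.20 and 10.22 in untreated transgenic and 10.11, 10.0002, 10.32 and 10.12 in metformin-treated livers. Its difference of 0.06 with metformin was not called and turned to -0.0051 when arrays were centred on their medians. Psme3, the nuclear PA28-gamma, had 10.0002, 9.98, 10.09 and 9.99 against 9.72, 9.85, 9.79 and 9.72 and fell by 0.25 (SE 0.082, limma adjusted p = 0.046), likewise called in 3 of the 12 fits. Psme2 shares sequence with Psme2b, so its signal may include that copy.

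Other genes of the ubiquitin pathway were taken from lists of known members. Among 13 measured proteasome-associated factors, 5 were called between metformin-treated and untreated transgenic livers, where 24.7% of all tested genes were called. Rad23b, which carries ubiquitinated proteins to the proteasome, had 11.23, 10.84, 10.98 and 10.95 in untreated and 10.28, 10.31, 10.28 and 10.18 in metformin-treated livers. It fell by 0.73 (limma adjusted p = 3.87e-04) and was also lower than wild type by 0.58 (adjusted p = 0.0109). Metformin-treated replicate 3 did not stand apart for Rad23b. Ubqln1 and Zfand5 fell as well, and Usp14, a ubiquitin protease bound to the regulatory particle, rose by 0.37; the ligase Ube3c rose as well. With the covariate for sex signal, Usp14 stayed called (0.62, limma adjusted p = 0.0455) and Rad23b did not (-0.72, adjusted p = 0.0551). Of these factors, transgenic livers differed from wild type in Ubqln2 alone, which was lower, where 14.1% of all genes were called.

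Of 12 measured ubiquitin pathway genes, only the conjugating enzyme Ube2d1 was called between transgenic and wild type livers, where 14.1% of all genes were called. It was 0.39 higher in transgenic livers. With metformin, Ube2d1, Ube2d2a, the ligase Huwe1 (-0.77) and the muscle atrophy ligase Fbxo32 (-0.49) were lower than in untreated transgenic livers. These were 4 of the 12, where 24.7% of all genes were called, 14.1% lower and 10.6% higher. Of 11 measured regulators, none was called between transgenic and wild type livers, neither Nfe2l1 nor Nfe2l2, which encode Nrf1 and Nrf2. With metformin, Irf1, an interferon response factor (-0.61), Stat3 (-0.47) and Vcp (-0.38) were lower and Ngly1, which processes Nrf1, was higher by 0.31. The regulators called were thus 3 lower and 1 higher of the 11, beside the same shares over all genes. With the covariate none of these regulators and ubiquitin genes was called.

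Among marker lists of immune cells, many of which carry immunoproteasomes, only that of Kupffer cells and macrophages held genes called without the covariate. Of 12 Kupffer cell and macrophage markers, 4 rose with the transgene and 4 fell with metformin, where 14.1% and 24.7% of all genes were called. With the covariate for sex signal, 4 were called with the transgene and none with metformin. Their mean log2 signal was 8.47 to 9.22 in wild type, 9.06 to 9.84 in transgenic and 8.29 to 9.28 in metformin-treated livers. Of 7 hepatocyte markers, 2 (Ttr and Serpina1c) were lower with the transgene and 2 higher with metformin. No lymphocyte, dendritic cell or endothelial marker list held a called gene without the covariate. With it, 1 of the 6 dendritic cell and MHC class II markers was called between transgenic and wild type livers, where 4.35% of all genes were called. Of 9 genes of class I antigen presentation, only Erap1, which trims peptides, was called, higher by 0.52 with metformin. The list of 11 measured interferon-response genes includes the members Psmb8 and Psmb9 themselves. In it, Irgm1 was lower in transgenic livers, and Irgm1 and Psmb8 moved in opposite directions with metformin. The part of these cells in the values of Psmb8, Psmb9 and Psmb10 was not tested.

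Genes with several probe sets allowed a check of single values. Of the 46 members, 5 had more than 1 probe set, which can share sequence with near-identical copies, so these genes are uncertain. For Psma3, Psma5, Psmb3 and Psmc1 the sign of every comparison was shared by their probe sets, and for Psmd2 the difference with metformin was 0.03 on one and -0.06 on the other. None of the 5 was called with all arrays.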

How the data were processed

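Total RNA of 12 livers was labelled with biotin and hybridised to Affymetrix arrays, per the labels' protocols. The deposited table holds log2 signals of the authors, made with Affymetrix Expression Console per the submitters' processing notes. The normalization method was not stated there, and labels name no batch. The values were used as deposited, with array medians of 5.69 to 5.85. Of 35556 probe sets, 21789 name 1 gene, 1621 several and 12146 none in the platform annotation. Per gene the probe set with the highest mean was kept, and the 25% of genes with the lowest mean were left out.

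limma 3.58.1 (R 4.3.3, lmFit and eBayes) was run on all 12 arrays with 3 group means and Benjamini-Hochberg adjustment over 14953 genes. A gene was called at an adjusted p under 0.05. The code was tested on simulated data. The sex covariate subtracts the average of Kdm5d, Eif2s3y and Uty, which are Y-linked, from Xist. Exact permutation tests compared immunosubunit and standard subunit differences. Values per array are given for catalytic subunits, Psme1, Psme2 and, per class and comparison, the called members of smallest adjusted p, or else the smallest p. Psma6, Psmd7 and the genes of other lists were named after their values were seen. Members, gene lists and motifs were chosen with earlier results of these data known. The number of arrays limits the precision.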

Additional observations from a re-analysis of the deposited data

Results flagged for a closer look

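Of the 22 members with values per array, each was examined in 3 groups of 4 livers. In 6 such groups 1 liver lay far from the others. Its gap to the nearest neighbour, as a share of the group's range, was above Dixon's 95% critical value. Chance flags about 1 in 20 groups, so some of these 6 are expected by chance. Metformin-treated replicate 3 was the high liver for Psma7 (gap 0.907 of the range), Psmb6 (0.989) and Psmc6 (0.917). Psmb6 had 10.48 there and 9.67 to 9.68 in the other 3. Psma4 was high in wild type replicate 3 (0.864) and in transgenic replicate 2 (0.904). Psme3 was high in transgenic replicate 3 (0.836). The same was done for the 48 tested symbols of the rule, here with Psmc3ip and Psme3ip1 included. Metformin-treated replicate 3 was set apart on the high side in 13, or 27.1%, against 4.49% of all tested genes. All 13 are proteasome parts.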

How the results depend on the processing

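With the call threshold at 0.1, 15 members were called between metformin-treated and untreated transgenic livers and 1 between metformin-treated and wild type livers. Without the filter on dim genes, with quantile normalization and with arrays centred on their medians, 6 members each differed among the 3 groups, and centring left 2 called between transgenic and wild type livers. Array quality weights called 12 (transgenic against wild type), 29 (metformin-treated against untreated transgenic), 17 (metformin-treated against wild type) and 30 (among groups). Metformin-treated replicate 3 had the lowest weight of the 12 arrays, 0.175. Calls over all genes moved too. For metformin-treated against wild type livers, the weights called 20.4% of all genes, against 2.43% in the main fit. Fits of only the 8 arrays compared gave 8 and 3 for the first and second comparison. With the sex covariate, 0 members were called in each comparison and among groups, and among arrays with Y-linked signal 0 between transgenic and wild type livers. The covariate without transgenic replicate 2 gave 4 for transgenic against wild type, 2 with metformin against transgenic and 3 among groups. Chosen after seeing the data were the covariate without metformin-treated replicate 3 (3 for transgenic against wild type, 2 with metformin against transgenic and 2 among groups), both doubted arrays left out (16, 28, 13 and 30) and both left out with the covariate (12, 13, 2 and 19). Leaving out 1 array gave 1 to 10 calls for transgenic against wild type, 3 to 25 for metformin-treated against untreated transgenic, 0 to 7 for metformin-treated against wild type and 2 to 26 among groups. The highest counts in the 3 comparisons came without metformin-treated replicate 3, where 21.8%, 28.6% and 5.18% of all genes were called. For counts given in this section without a share, proteasome genes were not compared with all genes. Such counts therefore cannot be read as results about proteasome genes in particular. The cause of these shifts was not tested. Of the 9 calls with metformin, 3 (Psmc5, Psmd8 and Psmd9) held in every fit without 1 array.

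Deviations from the group means correlated weakly between same-numbered livers (-0.18 to 0.24). The numbers were not used as pairs in the main fit, although such values cannot exclude a pairing. The replicate block gave 2 calls for transgenic against wild type, Psmd8 and Psmd9, and 10 for metformin-treated against untreated transgenic.

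Differences near 0 that were not called changed sign. For transgenic against wild type, Psmb7 became -0.033 with the covariate without transgenic replicate 2 and -0.010 with both arrays out, and Psme2 became 0.032 and 0.049 in these fits and 0.0062 among Y-linked arrays. For metformin-treated against untreated transgenic, Psme1 became -0.0051 with centring, -0.045 with array weights, -0.068 with the covariate, -0.11, -0.16 and -0.20 with the covariate without transgenic replicate 2, metformin-treated replicate 3 and both, -0.057 without both and -0.0052 to 0.10 in fits without 1 array. For metformin-treated against wild type, Psmb5 became 0.0021 and 0.0047 with the covariate, with all arrays and without transgenic replicate 2, and -0.17 to 0.043 in fits without 1 array. Psmb9 became -0.092 with array weights, -0.011 among Xist arrays, -0.15, -0.14 and -0.16 in the fits without metformin-treated replicate 3, and -0.14 to 0.078 in fits without 1 array. Psme1 became -0.017 and -0.013 with the covariate and metformin-treated replicate 3 left out, alone and with transgenic replicate 2. The median over the 46 members kept its sign under quantile normalization and centring in the first and second comparison.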
